A study of Homo sapiens with 9 samples.

Results

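The genes described here are 10 of the 27315 entries of the deposited expression table: the Notch receptors NOTCH1, NOTCH2 and NOTCH3, the Jagged ligands JAG1 and JAG2, the Fringe enzymes LFNG, MFNG and RFNG, and the target genes HES1 and HEY1. They were chosen by their symbols, with their differences between the groups in these same 9 libraries already known, so their levels are given as a description, without a test. The cells were MDA-MB-468, a long-established human cell line from a triple-negative breast cancer. All were infected with lentivirus carrying a pLKO.1 hairpin and then selected, which the protocol gives as puromycin at 2 µg/ml for vectors with that marker. There were 3 libraries with a scrambled control hairpin, 3 with the hairpin named sh1 against BBOX1 and 3 with the hairpin named sh6, and the question of the design is how transcripts differ once BBOX1, the last enzyme of carnitine synthesis, is depleted. The protocol lists target sequences for hairpins called sh1 and sh2, and it does not say which of them sh6 carries. RNA was taken from triplicates, and nothing says that these were separate infections, so p-values measure the spread between the libraries, which may be technical. Both hairpins were set against the same 3 control libraries.

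Notch receptors are single-pass membrane proteins that are activated by ligands of the Jagged and Delta-like families on a neighbouring cell. Endocytosis of the bound ligand exposes the receptor to an ADAM protease and then to gamma-secretase, which frees an intracellular domain that enters the nucleus and joins RBPJ and a Mastermind protein to turn on genes such as HES1 and HEY1, both of them repressors of transcription. Fringe enzymes add N-acetylglucosamine to O-fucose on the receptor, which changes how it answers to Jagged and to Delta-like ligands. In the breast the pathway takes part in luminal cell fate, and high JAG1 and NOTCH1 have been tied to poor outcome in breast cancer.

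The stretch just before the start site is shown for HES1, the textbook target, for NOTCH3 and JAG1, which were both lower with sh6, and for LFNG, which was higher with sh6. The sequences are from RefSeq on GRCh38.p14, cover the 100 bases before the annotated start and read 5′ to 3′ on the gene's own strand. Capitals mark GTGGGAA, the core letters that RBPJ is known to bind.
HES1: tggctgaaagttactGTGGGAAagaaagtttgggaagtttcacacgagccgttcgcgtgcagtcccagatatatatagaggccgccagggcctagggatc
NOTCH3: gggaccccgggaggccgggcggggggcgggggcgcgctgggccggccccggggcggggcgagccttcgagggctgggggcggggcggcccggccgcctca
JAG1: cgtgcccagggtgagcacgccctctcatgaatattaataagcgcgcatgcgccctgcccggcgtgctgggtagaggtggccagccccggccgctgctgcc
LFNG: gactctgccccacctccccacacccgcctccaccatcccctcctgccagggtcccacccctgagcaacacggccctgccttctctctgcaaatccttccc
HES1 is at chr3:194136048-194136147 on the plus strand, NOTCH3 at chr19:15200996-15201095 on the minus strand, JAG1 at chr20:10674000-10674099 on the minus strand and LFNG at chr7:2512429-2512528 on the plus strand, the first of its 2 starts in the table.

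The table of windows from 250 bases before to 50 after each start matched 8 of the 10 genes, in 9 windows of 300 bases. GTGGGAA was searched on both strands together with TGANTCA (AP-1), GGAATG (TEAD) and CACGTG (E-box). In those 9 windows there was 1 match, the HES1 site printed above. Across all 35116 windows of the same length, GTGGGAA occurred in 6.25%, TGANTCA in 7.71%, GGAATG in 14.0% and CACGTG in 7.26%. GC content was 78.3% in the window of NOTCH3, 77.0% in NOTCH1, 79.7% in JAG2 and 77.7% in RFNG. It was 70.3% in NOTCH2, 68.7% in JAG1, 62.3% at the first start of LFNG and 59.0% in HES1, and the median of all windows was 58.7%.

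Recovered depth ran from 15726037 to 19730782 reads per library, and 13165 genes were high enough to be tested. BBOX1 was at a mean normalised count of 2616 ± 226 (SD, n = 3) in the controls, 333 ± 11.5 with sh1 and 601 ± 19.0 with sh6, so it was at 12.7% and 23.0% of control, and no hairpin library reached a control. All 8 epithelial markers listed for the line were above the test level: EGFR, EPCAM, CDH1, KRT5, KRT6B, KRT7, KRT17 and KRT18. Their summed normalised count was 109480 to 121053 per library. EGFR alone had a mean of 55160 in the controls, 58770 with sh1 and 43436 with sh6. The sum thus shows epithelial cells and does not tell basal from luminal ones. PGR was at 0 in every library. ESR1, which a triple-negative line should lack, was at a mean of 227 in the controls, 242 with sh1 and 109 with sh6. COL1A1 was the marker above the test level among 6 fibroblast markers, CD68 and ITGB2 among 6 leucocyte markers and ERG among 5 endothelial markers. The leucocyte sum ran from 399 to 443 in the controls, 214 to 243 with sh1 and 449 to 472 with sh6, and its part in the results below was not tested. In RNA from whole cultures, fewer cells that express a gene and less RNA of it per cell cannot be told apart.

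Levels of different genes were compared as normalised count per kilobase of exon, using the union of exons in GENCODE release 29. This union takes in the exons of every annotated transcript, such as 16807 bases for NOTCH2, 9298 for JAG1 and 3865 for RFNG. The order of genes and the family shares below depend on that choice of length, and no other length was tried. In the controls NOTCH3 was highest, at a mean of 1148 per kb, followed by HES1 at 635, JAG1 at 346, NOTCH2 at 207, RFNG at 115 and NOTCH1 at 40.0 per kb. The low end held LFNG at 15.9, HEY1 at 15.1, JAG2 at 7.44 and MFNG at 1.84 per kb. LFNG and HEY1 were the one pair of neighbours in this order whose 3 control libraries overlapped. The order with sh6 was another: NOTCH3 stayed first at 540 per kb and HES1 next at 383, while JAG1 stood at 146, below NOTCH2 at 155 and RFNG at 147. LFNG with sh6 was at 115 per kb, above NOTCH1 at 70.4, and HEY1 was last at 2.29, with ranges that overlapped those of MFNG at 4.65. With sh6 the ranges of NOTCH2 and RFNG, and of RFNG and JAG1, overlapped as well.

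**Figure D1:**
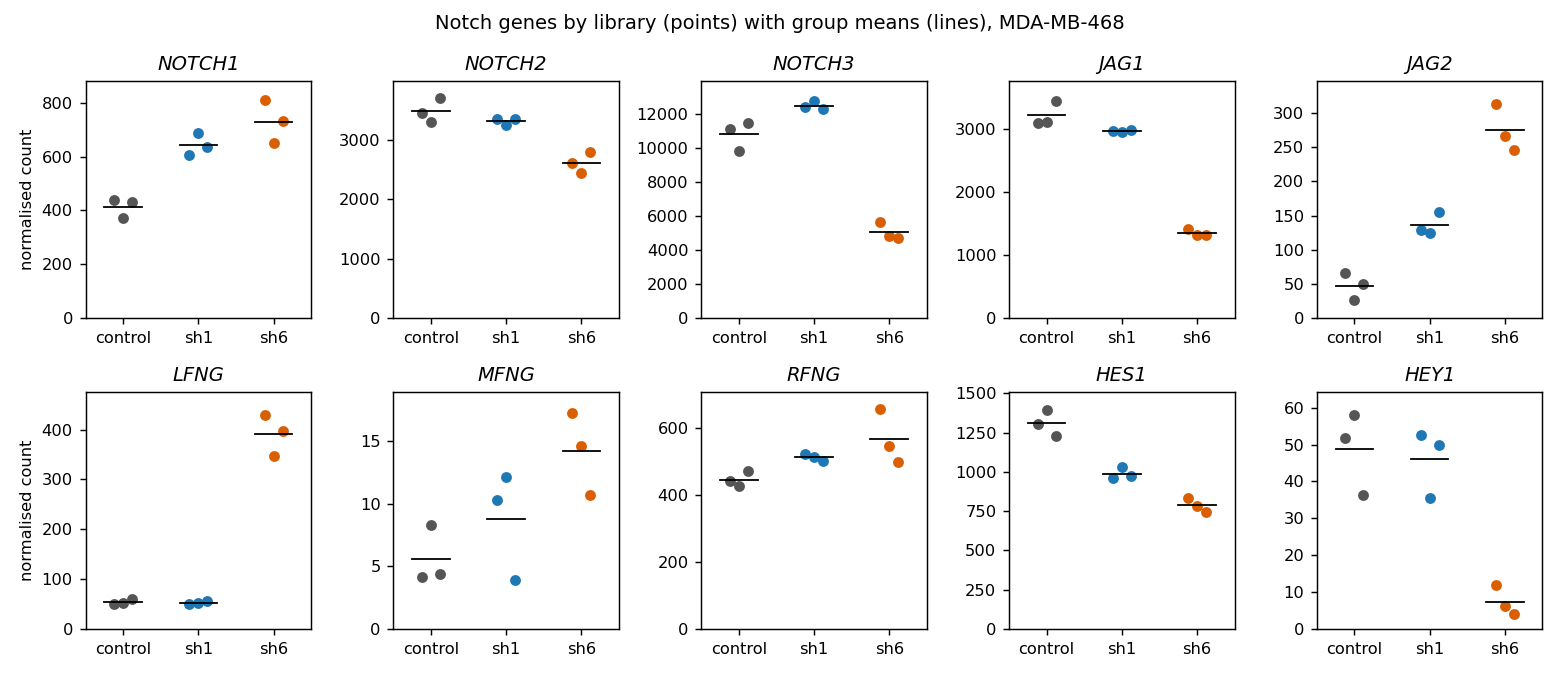
Normalised count (y axis, from 0, a scale of its own per panel) of each of the 10 genes in 3 control, 3 sh1 and 3 sh6 libraries, with points for libraries and lines for group means. LFNG sits near 54.2 in the controls and 52.7 with sh1 but at 392 with sh6, and JAG1 at 1354 with sh6 is far below both other groups.

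NOTCH3, the most abundant receptor per length in these cells, went opposite ways with the hairpins. Its normalised counts were 11090, 9834 and 11422 in the control libraries, 12360, 12723 and 12273 with sh1, and 5661, 4832 and 4724 with sh6. The 3 groups did not overlap: every sh1 library was above the controls and every sh6 library was far below them. The mean was 1.15-fold higher with sh1 than in the controls and 2.13-fold lower with sh6, and 2.45-fold lower with sh6 than with sh1. As differences of the deposited log2 values, these were 0.21, -1.08 and -1.29, each with a standard error of 0.0615. The difference for sh1 depended on the scaling, and it was 0.43 after quantile normalisation and 0.32 with voom on recovered reads. The gene lies on chromosome 19 from 15159038 to 15200981 on the minus strand (GRCh38).

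NOTCH1, the receptor with the best known role in T-cell leukaemia, was higher with both hairpins. Control libraries had 438, 373 and 433 normalised counts, sh1 libraries 607, 686 and 635, and sh6 libraries 809, 651 and 731. No hairpin library overlapped a control, while the ranges of the 2 hairpins overlapped. Against the controls the mean was 1.55-fold higher with sh1 and 1.76-fold higher with sh6, with log2 differences of 0.57 and 0.73 (SE 0.0756). With voom on recovered reads the log2 difference with sh1 was 0.74. The gene lies on chromosome 9 from 136494433 to 136545786 on the minus strand.

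NOTCH2, which with JAG1 is mutated in Alagille syndrome, was lower with sh6. It had 3440, 3288 and 3695 normalised counts in the controls, 3338, 3248 and 3346 with sh1, and 2603, 2432 and 2796 with sh6. The sh1 libraries overlapped the controls, and all sh6 libraries lay below both other groups. With sh6 the mean was 75.1% of control, a log2 difference of -0.4 (SE 0.0567). With sh1 the difference was -0.07, and it was 0.02 after quantile normalisation and 0.04 with voom on recovered reads. The gene lies on chromosome 1 from 119911553 to 120069626 on the minus strand and has a near-identical partial copy, NOTCH2NL, whose reads the counting may have split from it. NOTCH2NL itself was at 791 ± 25.2 in the controls, 496 ± 10.3 with sh1 and 766 ± 38.5 with sh6 (SD, n = 3).

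Among the ligands, JAG1 and JAG2 differed from control in opposite directions with sh6. JAG1, the main Jagged ligand of these cells by level, had 3095, 3119 and 3443 normalised counts in the controls, 2962, 2952 and 2990 with sh1, and 1421, 1316 and 1325 with sh6. The sh1 libraries were just below the lowest control, and the sh6 libraries were far below. The mean with sh6 was 42.1% of control, or 2.38-fold lower, a log2 difference of -1.21 (SE 0.0552). With sh1 it was 92.2% of control, a difference of -0.11, which came to 0 with voom on recovered reads. JAG1 lies on chromosome 20 from 10637684 to 10673999 on the minus strand, and 79 bases of its exons (0.8%) are shared with the antisense transcript AL050403.2.

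JAG2, whose product binds the same receptors, had 66.2, 26.7 and 50.0 normalised counts in the controls, 129, 125 and 156 with sh1, and 313, 266 and 246 with sh6. The 3 groups did not overlap, and they stood in the order control, sh1, sh6. Its mean was 2.87-fold higher with sh1 and 5.77-fold higher with sh6 than in the controls, and 2.01-fold higher with sh6 than with sh1. The log2 differences were 0.97, 1.74 and 0.78 (SE 0.115), on a scale that understates the change of genes this low. The controls were spread widely: without control replicate 2, the lowest, the folds were 2.35 with sh1 and 4.73 with sh6, and without control replicate 1, the highest, they were 3.56 and 7.17. JAG2 lies on chromosome 14 from 105140981 to 105168824 on the minus strand, and 469 bases of its exons (7.3%) are shared with AL512356.1 on the same strand.

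The Fringe enzymes were higher with sh6, LFNG by far the most. LFNG encodes Lunatic fringe, known from the segmentation clock of the embryo. It had 49.5, 52.1 and 60.9 normalised counts in the controls, 49.3, 52.8 and 55.9 with sh1, and 430, 347 and 398 with sh6. The sh1 libraries were mixed with the controls, and every sh6 library was several times higher than any other library. The mean with sh6 was 7.23-fold that of the controls and 7.43-fold that with sh1, and leaving out single libraries kept the first of these between 6.87 and 7.71. The log2 differences were -0.02 for sh1 and 2.05 for sh6 (SE 0.0906). Behind these values were 374 to 400 recovered reads per sh6 library, but 48 to 69 in the controls and 48 to 56 with sh1. LFNG lies on chromosome 7 from 2512529 to 2529177 on the plus strand.

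RFNG, Radical fringe, was the most abundant of the 3 per length in the controls. Its normalised counts were 441, 426 and 471 in the controls, 524, 514 and 501 with sh1, and 657, 546 and 500 with sh6. Both hairpin groups lay above the controls, and they overlapped each other. The mean was 1.15-fold higher with sh1 and 1.27-fold higher with sh6, log2 differences of 0.18 and 0.3 (SE 0.0765). RFNG lies on chromosome 17 from 82047902 to 82051831 on the minus strand. Of its exon bases, 835 (21.6%) are also exon of GPS1 on the opposite strand, which stood at a mean normalised count of 3096 in the controls, and the sources used here do not give how the counting handled strand.

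MFNG, Manic fringe, was too low to be tested and is given by its counts. It had 4.15, 8.29 and 4.35 normalised counts in the controls, 10.3, 12.1 and 3.93 with sh1, and 17.2, 14.6 and 10.7 with sh6, from 4 to 16 recovered reads per library. The sh6 libraries did not overlap the controls, and the sh1 libraries overlapped both other groups. The mean with sh6 was 2.53-fold that of the controls. MFNG lies on chromosome 22 from 37469063 to 37486401 on the minus strand.

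Both target genes were lower with sh6, HES1 modestly and HEY1 more steeply. HES1, a basic helix-loop-helix repressor, had 1307, 1392 and 1230 normalised counts in the controls, 958, 1029 and 974 with sh1, and 836, 785 and 746 with sh6. The 3 groups were apart, with the controls highest and sh6 lowest. The mean was 75.4% of control with sh1 and 60.3% with sh6, log2 differences of -0.39 and -0.69 (SE 0.0625). Between the hairpins it was 1.25-fold lower with sh6. With voom on recovered reads the log2 difference was -0.29 with sh1 against control and -0.42 with sh6 against sh1. HES1 lies on chromosome 3 from 194136145 to 194138732 on the plus strand, and the printed site is in its upstream stretch.

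HEY1, a related repressor, had 51.9, 58.0 and 36.4 normalised counts in the controls, 52.7, 35.6 and 49.9 with sh1, and 11.8, 6.32 and 4.13 with sh6. The sh1 libraries overlapped the controls, and no sh6 library came near either group. The mean with sh6 was 15.2% of control, or 6.58-fold lower, and 6.21-fold lower than with sh1. The first fold was 9.33 without sh6 replicate 1 and 5.38 without sh6 replicate 3. The log2 difference with sh6 was -1 (SE 0.114) on the deposited scale and -2.64 on the log2 scale of normalised count plus 1, since the deposited scale shrinks differences at 4 to 11 recovered reads per library.

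**Figure D2:**
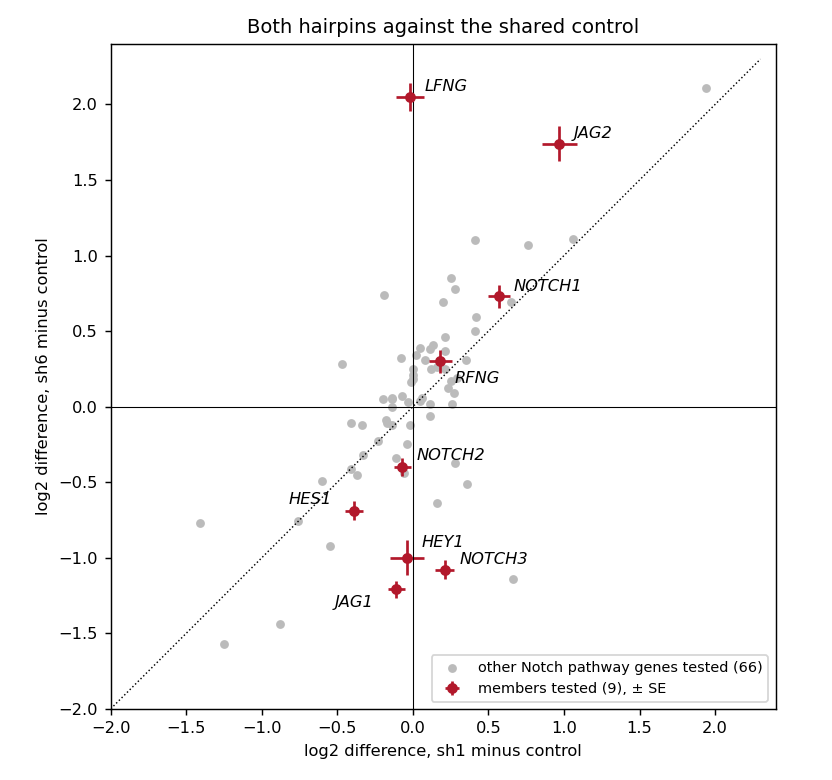
Difference of deposited log2 values from the shared control with sh1 (x axis) and sh6 (y axis) for the 9 genes tested, with standard errors, and for 66 other Notch pathway genes in grey; the dotted line marks equal differences. LFNG, HEY1 and JAG1 lie near 0 along the x axis (-0.02, -0.04 and -0.11) and far from 0 along the y axis (2.05, -1 and -1.21).

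The makeup of each family was followed as the share of each gene in the family's summed level per kb. In the controls NOTCH3 held 82.3% ± 0.407 (SD, n = 3) of the receptor level, NOTCH2 14.8% ± 0.482 and NOTCH1 2.86% ± 0.0823. With sh1 the share of NOTCH1 was 3.91% ± 0.189 and that of NOTCH3 83.7% ± 0.269. With sh6 NOTCH3 held 70.5% ± 2.19, NOTCH2 20.4% ± 1.99 and NOTCH1 9.18% ± 0.436. The receptor sum was 1394 ± 104 per kb in the controls, 1584 ± 25.6 with sh1 and 766 ± 61.1 with sh6, so NOTCH1 and NOTCH2 held more of a smaller sum with sh6.

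For the Jagged ligands the share of JAG2 was 2.1% ± 0.893 in the controls, 6.26% ± 0.689 with sh1 and 22.7% ± 1.51 with sh6. JAG1 remained the larger part in every library, at 77.3% ± 1.51 with sh6, while the Jagged sum was 354 ± 21.3, 341 ± 4.77 and 189 ± 11.5 per kb in the 3 groups. For the Fringe enzymes, RFNG held 86.7% ± 0.952 in the controls, 87.9% ± 0.6 with sh1 and 55.1% ± 2.8 with sh6. The share of LFNG was 11.9% ± 0.74, 10.2% ± 0.858 and 43.2% ± 3.09, and the Fringe sum was 133 ± 6.98, 151 ± 3.23 and 266 ± 30.6 per kb. With sh6 the summed receptors and Jagged ligands were thus lower, and the summed Fringe enzymes higher, than in the controls.

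**Figure D3:**
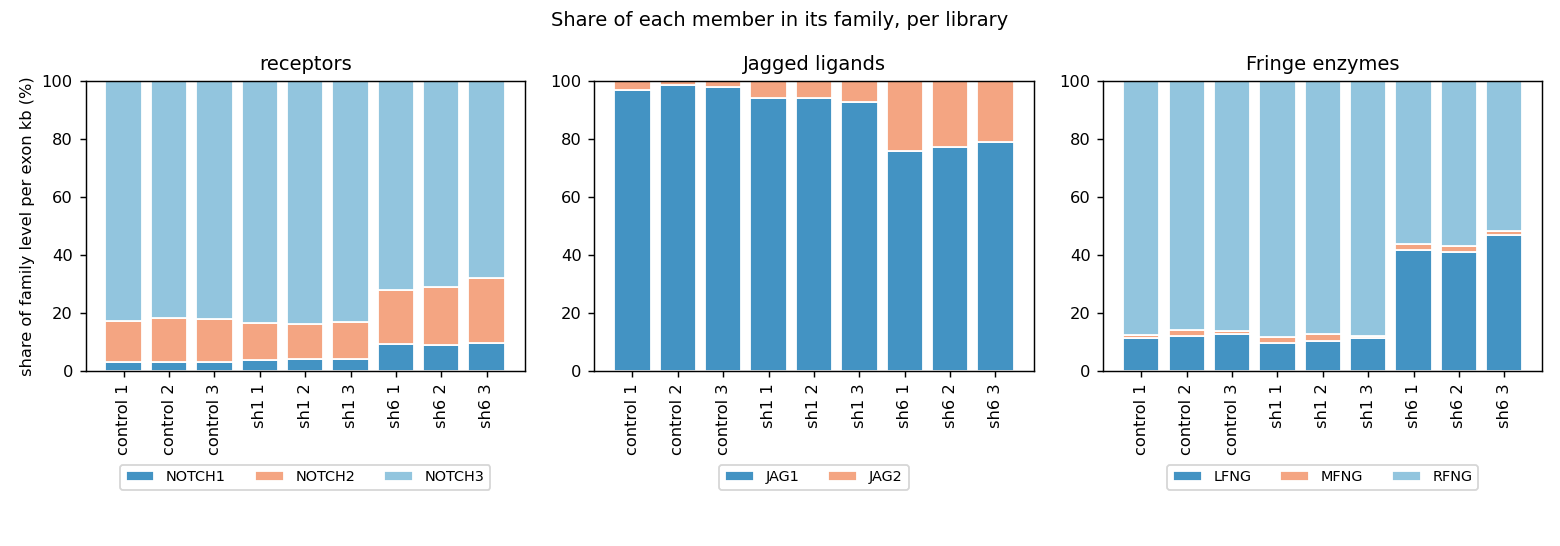
Share of each gene in the summed level per exon kb of its family (y axis, percent) in each of the 9 libraries, for receptors, Jagged ligands and Fringe enzymes. The 3 sh6 bars differ from the other 6 in every family, with JAG2 at 22.7% and LFNG at 43.2% on average.

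The counts that follow use the threshold of an adjusted p under 0.05 in limma, and for the 10 genes they are description, since this contrast chose them. With sh1, 4 of the 9 genes tested were past it and higher, where 29% of all genes tested were called higher, and 1 was lower (HES1), where 30% were. RFNG was the weakest of the 4 and passed narrowly: the number was 3 without control replicate 1 or 2, without any of the 3 sh1 libraries in turn, with no filter on low values and with no mean trend. With voom on recovered reads the log2 difference of RFNG with sh1 was 0.31 in place of 0.18. With sh6, 4 were higher against 34.2% of all genes, and 5 were lower against 33.6%. Between sh6 and sh1, 2 were higher (LFNG and JAG2) against 30.8% of all genes and 5 lower (NOTCH2, NOTCH3, JAG1, HES1 and HEY1) against 28.9%. HEY1 is in both counts of 5. Its sh6 libraries lay below the normalised count of 16.2 that the filter stands for. It was thus tested only through the control and sh1 libraries in which it is high. With a stricter filter, a mean at least 2 above the floor of 5.02, 4 were lower in each of these comparisons. Groups that did not overlap were found for 6 of the 10 genes with sh1 (64.1% of all genes), 10 with sh6 (68.4%) and 7 between the hairpins (65.3%). The median size of the log2 difference, sign dropped, was 0.18 with sh1 (0.22 over all genes) and 1.0 with sh6 (0.28 over all genes).

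The rest of the pathway was followed in 7 lists of 78 genes, of which 66 were high enough to test. The 66 include HES7, which passed the filter only through the hairpin libraries in which it is high. It is part of the counts of higher genes below. With sh1, 23 of these rose and 19 fell, and with sh6, 30 rose and 18 fell, over a background of 29% and 30% and of 34.2% and 33.6% of all genes. Both hairpins agreed in direction for 17 that rose and 11 that fell, where 18.9% and 19.4% of all genes did. Between the hairpins 27 were higher with sh6 and 12 lower, where 30.8% and 28.9% of all genes were. The median log2 difference of the 66 was 0.04 with sh1 and 0.06 with sh6, beside 0.0 and 0.01 over all genes. Calls for sh1 depended on the scaling: with voom on recovered reads, 65.1% of all genes called with sh1 were higher, against 49.1% on the deposited scale, and between the hairpins 37.4% against 51.6%. Voom here scaled each library only by its total recovered reads over the genes tested. With it the median log2 difference of all genes was 0.11 with sh1 and -0.09 between the hairpins. On that scaling 31 pathway genes rose and 12 fell with sh1, and between the hairpins 14 were higher with sh6 and 17 lower. The excess of higher genes between the hairpins on the deposited scale was thus turned round, together with this shift of all genes. The 7 lists were chosen with earlier results of these data known. Most genes named below were then picked for the largest called differences of their list. Their p-values are therefore descriptive and are not independent tests.

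**Figure D4:**
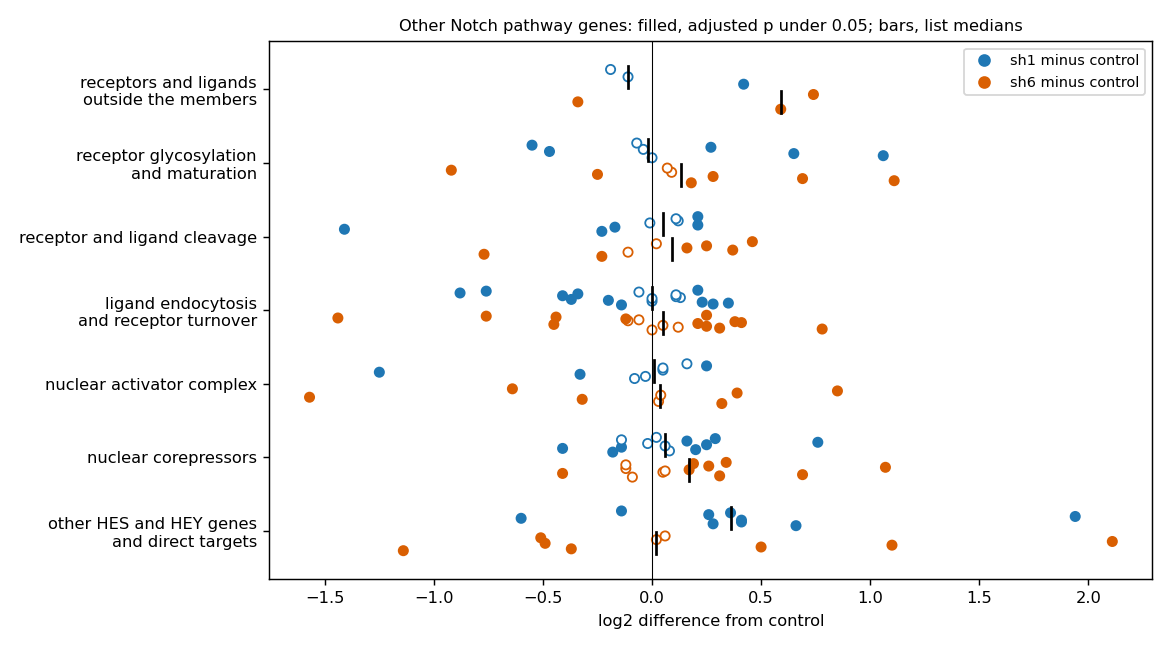
Difference of deposited log2 values from control (x axis) for the pathway genes tested in 7 lists, sh1 in blue and sh6 in orange; filled points have an adjusted p under 0.05 and black bars are list medians. Points of each list lie on both sides of 0 with sh6, from MAML3 at -1.57 to CCND1 at 2.11.

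Of 10 further receptors and ligands, 3 were high enough to test. DLL3, a Delta-like ligand that does not activate receptors on neighbouring cells, rose from a mean normalised count of 59.2 ± 8.64 to 95.7 ± 11.2 with sh1 (adjusted p = 3.4e-04) and to 114 ± 11.0 with sh6 (adjusted p = 2.5e-06). EGFL7, a secreted protein that can bind Notch receptors, was at 103 ± 15.2, 83.3 ± 7.36 and 211 ± 47.8, a 2.05-fold rise with sh6 (adjusted p = 2.5e-07), and sh6 was 2.53-fold above sh1 (adjusted p = 4.9e-09). DNER, a non-canonical ligand, fell 1.48-fold with sh6 (adjusted p = 0.0015). Its difference between the hairpins (log2 -0.23, adjusted p = 0.0282) was past the threshold with all libraries, but the p was 0.0741 without sh1 replicate 2, 0.117 without sh1 replicate 3, 0.0631 without sh6 replicate 2, 0.0774 without sh6 replicate 3 and 0.0957 after quantile normalisation. The other receptor, NOTCH4, was at 2.98 to 8.91 normalised counts in the controls, 15.5 to 31.6 with sh1 and 9.29 to 13.8 with sh6. The ligand DLL4 was at 1.76 to 3.1 in the controls, 2.01 to 5.13 with sh1 and 5.32 to 11.9 with sh6. DLL1, an activating Delta-like ligand, was at 2.98 to 6.16 in the control and sh1 libraries and at 34.5, 30.1 and 23.4 with sh6. DLK2 was highest with sh6 as well, with 5.88 to 6.79 in the controls and 31.3 to 32.4 with sh6. DLL1 and DLK2 were named after their values were seen. NOTCH4, DLL4, DLL1 and DLK2 were all too low on average to be tested.

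Enzymes that glycosylate or mature the receptors moved in both directions. With sh6, 4 of 8 rose and 2 fell, where 34.2% and 33.6% of all genes did. With sh1, 3 rose and 2 fell, where 29% and 30% of all genes did. POGLUT1, which adds O-glucose to the receptor's EGF repeats, was at 75.6 ± 8.34 in the controls and rose 2.84-fold with sh1 (adjusted p = 4.1e-12) and 2.96-fold with sh6 (adjusted p = 9.4e-13). EOGT, which adds O-GlcNAc to EGF repeats, rose 1.74-fold and 1.8-fold (adjusted p = 3.6e-08 and 8.3e-09). B4GALT1, a galactosyltransferase that extends the glycan begun by Fringe, had 2503 ± 38.7 in the controls, 1694 ± 70.5 with sh1 and 1293 ± 49.3 with sh6. It fell 1.48-fold with sh1 (adjusted p = 5.5e-10) and 1.94-fold with sh6 (adjusted p = 2.2e-15). GXYLT1, which adds xylose to O-glucose, fell 1.45-fold with sh1 (adjusted p = 2.2e-06) and rose 1.24-fold with sh6 (adjusted p = 0.00135).

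Among 8 proteases and gamma-secretase subunits, both ADAM proteases fell with both hairpins. ADAM17, a sheddase of many membrane proteins, had 3018, 3083 and 2663 normalised counts in the controls, 1099, 1030 and 1055 with sh1, and 1570, 1712 and 1774 with sh6. It fell 2.75-fold with sh1 (adjusted p = 1.2e-18) and 1.73-fold with sh6 (adjusted p = 1.9e-12), and sh6 was 1.59-fold above sh1 (adjusted p = 2.2e-10). ADAM10, the main protease for ligand-bound receptors, fell 1.18-fold and 1.17-fold (adjusted p = 7.4e-04 and 7.8e-04), and with voom on recovered reads its p for sh1 was 0.0586. The gamma-secretase subunits PSEN2 and PSENEN rose 1.42-fold and 1.4-fold with sh6 (adjusted p = 3.5e-04 and 1.1e-05). With sh1 PSEN2 was 1.22-fold higher (adjusted p = 0.0415), which was lost without control replicate 2 (0.219), sh1 replicate 1 (0.163) or sh1 replicate 3 (0.0858), after quantile normalisation (0.0887) and with no filter on low values (0.0627). PSENEN was 1.16-fold higher with sh1 (adjusted p = 0.0304), which was lost without control replicate 1 (0.22) or 2 (0.152), without sh1 replicate 2 (0.111) or 3 (0.0675), and with no mean trend (0.0898). Without control replicate 3 its log2 difference went from 0.21 to 0.35, and with voom on recovered reads to 0.33. Between the hairpins PSENEN had an adjusted p of 0.00867, of 0.0619 without sh6 replicate 1 and of 0.0976 with voom on recovered reads.

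Of 17 tested genes for ligand endocytosis and receptor turnover, 7 rose and 5 fell with sh6, and 4 rose and 7 fell with sh1. Over all genes, 34.2% rose and 33.6% fell with sh6, and 29% rose and 30% fell with sh1. DTX4, a Deltex ubiquitin ligase, had 3498 ± 111 in the controls, 1874 ± 14.2 with sh1 and 1254 ± 73.3 with sh6, a fall of 1.87-fold (adjusted p = 1.2e-14) and 2.79-fold (adjusted p = 3.5e-20). LNX1, a ubiquitin ligase for NUMB, fell 1.99-fold and 1.98-fold (adjusted p = 5.2e-09 and 4.1e-09). NUMB, an inhibitor of Notch, fell 1.31-fold and 1.39-fold (adjusted p = 1.2e-06 and 2.4e-08). MIB2, a Mind bomb ligase that acts on ligands, rose 1.28-fold with sh1 (adjusted p = 0.00439) and 1.94-fold with sh6 (adjusted p = 1.6e-09).

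In the nuclear activator complex, 3 of 8 genes rose and 3 fell with sh6, where 34.2% and 33.6% of all genes did. With sh1, 1 rose and 2 fell, where 29% and 30% of all genes did. MAML3, a Mastermind coactivator, had 280 ± 36.0 in the controls, 86.1 ± 8.14 with sh1 and 59.5 ± 9.59 with sh6, a fall of 3.25-fold (adjusted p = 1.3e-12) and 4.7-fold (adjusted p = 3.5e-15). MAML2 fell 1.27-fold and 1.26-fold (adjusted p = 3.3e-06 and 5.0e-06). The acetyltransferases KAT2A and KAT2B parted with sh6: KAT2A rose 1.87-fold (adjusted p = 1.2e-12) and KAT2B fell 1.8-fold (adjusted p = 7.3e-07). With sh1 KAT2A rose 1.21-fold (adjusted p = 0.00153) and KAT2B was not called (adjusted p = 0.162). RBPJ, the DNA-binding partner of all Notch receptors, was named after its values were seen, and it rose 1.26-fold with sh6 (adjusted p = 1.4e-05) and was at 1602 ± 91.1 with sh1 beside 1692 ± 32.8 in the controls (adjusted p = 0.254).

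Of 13 corepressors, 7 rose and 1 fell with sh6, where 34.2% and 33.6% of all genes were called higher and lower. With sh1, 5 rose and 3 fell, where 29% and 30% of all genes did. TLE3, a Groucho-family corepressor, had 1383 ± 75.1 in the controls, 2389 ± 121 with sh1 and 2982 ± 229 with sh6, a rise of 1.73-fold (adjusted p = 2.5e-12) and 2.16-fold (adjusted p = 4.4e-16). SPEN, which holds RBPJ targets off, rose 1.16-fold with sh1 (adjusted p = 0.00335) and 1.64-fold with sh6 (adjusted p = 9.1e-12). CTBP2 rose 1.23-fold and 1.14-fold (adjusted p = 7.1e-05 and 0.00557). KDM5A, a histone demethylase, rose 1.29-fold with sh6 (adjusted p = 6.8e-05), and CIR1, another RBPJ corepressor, fell 1.37-fold with each hairpin (adjusted p = 4.7e-06 and 3.6e-06).

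Further HES and HEY genes and direct targets did not move as 1 group: of 9 tested, 7 rose and 2 fell with sh1, and 3 rose and 4 fell with sh6. The shares over all genes were 29% and 30% with sh1, and 34.2% and 33.6% with sh6. NRARP, a target that dampens Notch signalling, had 90.0, 127 and 114 normalised counts in the controls, 58.5, 45.2 and 64.5 with sh1, and 63.6, 65.7 and 62.8 with sh6. It fell 1.97-fold (adjusted p = 6.3e-06) and 1.72-fold (adjusted p = 8.5e-05), and all 6 hairpin libraries were below the controls. HES2 had 276, 262 and 305 in the controls, 481, 461 and 493 with sh1, and 97.0, 103 and 92.6 with sh6. It rose 1.7-fold with sh1 (adjusted p = 1.6e-08), fell 2.88-fold with sh6 (adjusted p = 6.8e-14) and was 4.9-fold lower with sh6 than with sh1 (adjusted p = 1.8e-18).

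HES4 and CDKN1A, the gene of the cell cycle inhibitor p21, also went opposite ways. CDKN1A rose 1.3-fold with sh1 (adjusted p = 6.3e-06) and fell 1.46-fold with sh6 (adjusted p = 8.8e-09). HES4, named after its values were seen, rose 1.25-fold with sh1 (adjusted p = 0.00833), although sh1 replicate 1 lay within the controls, and fell 1.32-fold with sh6 (adjusted p = 6.2e-04). Its rise was lost without sh1 replicate 2 (adjusted p = 0.069) or without sh1 replicate 3 (0.0764). HES6, a HES protein that counteracts HES1, rose 1.49-fold and 1.62-fold (adjusted p = 6.8e-04 and 5.0e-05). HES7, a segmentation clock gene like LFNG, was at 11.3 ± 3.68 in the controls, 25.8 ± 4.63 with sh1 and 68.9 ± 22.1 with sh6. All its controls lay below the normalised count of 16.2 that the filter stands for. It was tested only because of the hairpin libraries in which it is high, so its p-values are left out. The counts of tested and called genes given here still include HES7 as higher with both hairpins. CCND1, the cyclin D1 gene, rose 3.99-fold and 4.49-fold (adjusted p = 4.3e-23 and 3.9e-24). HEY2, the closest relative of HEY1, was too low to test, at 8.21 to 13.2 in the controls, 17.9 to 22.6 with sh1 and 0.912 to 6.38 with sh6.

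**Figure D5:**
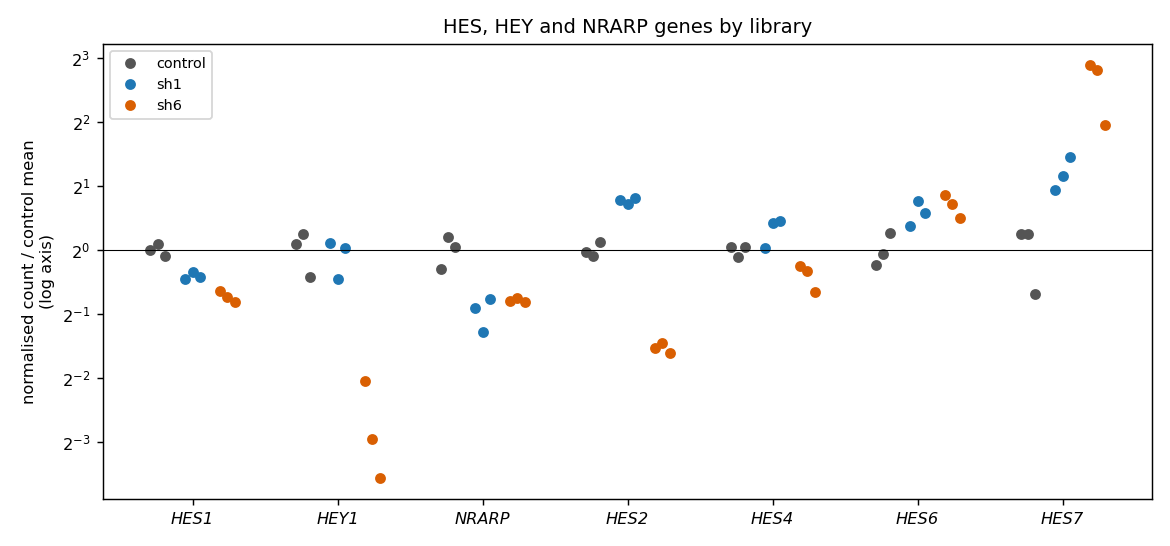
Normalised count of 7 HES, HEY and NRARP genes in each library divided by the control mean of the gene (y axis, log scale with base 2), with control in grey, sh1 in blue and sh6 in orange. HES1 and NRARP lie below the controls with both hairpins, HEY1 with sh6, HES2 above them with sh1 and below them with sh6, and HES7 above them with both.

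JAG2 had the largest mean difference of both hairpins from control among the 10 genes by size, 1.36 on the deposited log2 scale. The tested genes whose log2 values followed those of JAG2 most closely over the 9 libraries were NSUN5 (Pearson r 0.992), TOP3B (0.991), IMPDH1 (0.989), GALNS (0.988) and CCDC102A (0.987). These libraries share their groups, so the values describe the order control, sh1, sh6, which all 5 genes have. NSUN5 means ran 461, 616 and 760 normalised counts in that order, and those of CCDC102A ran 110, 203 and 280.

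The authors' deposited table also gives a log2 fold change with an adjusted p-value for each gene, without saying which libraries were compared. For the genes described here, the fold changes closely match the mean normalised count of both hairpins pooled, set against the control mean. Such pooling averages over hairpins that differed from each other for LFNG, NOTCH2, NOTCH3, JAG1, JAG2, HES1 and HEY1. In the authors' deposited table JAG2 has 2.11 (adjusted p = 9.8e-08), NOTCH1 0.73 (1.2e-08), HES1 -0.56 (4.2e-05), LFNG 2.04 (0.0466) and RFNG 0.27 (0.0433). In the authors' deposited table NOTCH3 has -0.3 (0.555), JAG1 -0.58 (0.143), HEY1 -0.87 (0.352), NOTCH2 -0.23 (0.154) and MFNG 1.04 (0.136).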

How the data were processed

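The deposited table holds 1 column per library of log2-like values from a variance-stabilising transformation run by the authors, and the authors' log2 fold change with its adjusted p-value, of an unstated comparison. Per the submitters' processing notes cutadapt, STAR, Salmon and DESeq2 were used with the build hg19. The authors' table is called batch-corrected, yet its values keep the steps of whole reads: after inverting the transformation to normalised counts, 76.6% to 80.4% of values between 0.5 and 20.5 reads were whole within 0.05. Per-library counts and folds are these normalised counts. Log2 differences, standard errors and p-values come from limma (version 3.58.1, R 4.3.3), fitted to the deposited log2 values of all 9 libraries as 3 groups with a mean trend, two-sided, with Benjamini-Hochberg adjustment over the 13165 genes that lay on average 1 or more above the floor of 5.02 (a normalised count of 16.2). Of the symbols, 27 had been turned into dates.

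The members and lists were chosen with earlier results of these data known. Named pathway genes are, per list, up to 4 with the largest differences called with both hairpins and up to 2 called between hairpins. HES4, RBPJ, HDAC1, DLL1, DLK2 and HEY2 were added after their values were seen. Gene positions are from GENCODE release 29 (GRCh38) and start-site sequences from RefSeq. There were 21 alternatives. The fit was tested on simulated data. Python 3.11.15, numpy 2.4.6, pandas 2.3.3 and matplotlib 3.10.9 did the rest.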

Additional observations from a re-analysis of the deposited data

Results flagged for a closer look

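In 5 of the genes high enough to test, NOTCH3 and 4 other pathway genes, every library of one hairpin was above all controls and every library of the other was below them. The share of all genes with this pattern was not computed, so the count is not read as a trait of the pathway. In either direction, 64.1% of all genes did not overlap the controls with sh1 and 68.4% with sh6. NOTCH3 was above with sh1 and below with sh6, a log2 difference between the hairpins of -1.29; no p is given for it because the gene was chosen with this difference known. The p-values given here for list genes are descriptive, since the lists too were chosen with earlier results known. GXYLT1 was below with sh1 and above with sh6 (0.74, limma adjusted p = 3.7e-10). HES2 was above with sh1 and below with sh6 (-1.8, adjusted p = 1.8e-18), and so was CDKN1A (-0.87, adjusted p = 1.3e-13). HDAC1, a histone deacetylase, was below with sh1 and above with sh6 (0.18, adjusted p = 0.00275), a small difference that ended with voom on recovered reads (0.149) and quantile normalisation (0.0852); its own rise with sh6 was not called (adjusted p = 0.429), and its fall with sh1 was lost with voom (-0.03, adjusted p = 0.662), quantile normalisation (-0.05, adjusted p = 0.387) and no mean trend (0.0531), and without sh1 replicate 1 (0.133) or 2 (0.0526). HEY2, too low to test, was likewise above the controls with sh1 and below them with sh6.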

How the results depend on the processing

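Over the 21 alternatives, 455 values of counts and of BBOX1 kept their direction and lay within 1.5 times the reported value, and 2 did not, both with voom on recovered reads: pathway genes lower with sh1 numbered 12 in place of 19, and those higher with sh6 than with sh1 numbered 14 in place of 27; the cause was not tested. For the 9 chosen genes that were tested, 508 values stayed within the replicate spread, 29 moved and 0 changed the sign of a called value. MFNG, too low to test, was not part of this check. Voom and the log2 of normalised count plus 1 gave larger differences for low genes, such as 2.84 and 2.83 for LFNG with sh6. For named pathway genes 1511 values kept their side of the threshold and 27 lost it, in PSEN2, PSENEN, DNER, HDAC1, HES4 and ADAM10. Libraries of the same replicate number correlated at -0.13 to 0.18 in their deviations, with 3 of 9 pairs over 0.1, so the numbers are not taken as pairs. With a replicate block, 24 pathway genes rose and 20 fell with sh1, and 30 rose and 18 fell with sh6. Voom moved the median of all genes with sh1 to 0.11. Counts of MFNG and of HEY1 with sh6 are too low for precise folds.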
